A study of Homo sapiens with 4 samples.

Results

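The genes described here encode proteins of the mitochondrial ribosome, taken as every gene symbol that begins with MRPL or MRPS and a number and has a peak annotated as a promoter. For each gene the promoter peak with the highest mean level was used. This gave 59 of the 10187 genes with a promoter peak in the authors' deposited table A. Of these 59 members, 54 are protein-coding, and 5 are pseudogenes or non-coding transcripts that the symbols also cover (MRPS31P5, MRPL45P2, MRPS9-AS2, MRPL20-AS1 and MRPS30-DT). The coding members comprise 36 genes of large subunit proteins, 17 genes of small subunit proteins, and MRPS36, whose current symbol is KGD4 and whose product belongs to a dehydrogenase complex.

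Chromatin accessibility had been measured by ATAC-seq in Kasumi-1, a human cell line from acute myeloid leukaemia that carries the t(8;21) translocation. The 2 groups were SETD8 knockout cells, made with CRISPR/Cas9 and labelled sgSETD8, and wild-type cells labelled sgNT, with 2 libraries each. SETD8, now KMT5A, is the enzyme that monomethylates histone H4 at lysine K20. Both groups grew in the same serum-supplemented medium, and whether the knockout cells were a clone or a pool, or the libraries separate cultures, is not given in the labels. The authors' deposited table A, the first, holds 20556 peaks on hg38. It names no library, and its fold change is treated against control by the table's name. Its value columns have no descriptive headers, and were read by the column order of the second table. The authors' deposited table B, the second, holds 13577 peaks. It sets the replicate 2 libraries of knockout and control side by side, which had 2091370 and 5345010 reads in peaks, so its differences have no replicate check. Of 9 myeloid markers, 6 had a promoter peak in table A and CD33, MPO and RUNX1T1 had none, against 1 of 3 for T cell, 1 of 3 for B cell, 0 of 3 for erythroid, 1 of 3 for epithelial and 0 of 2 for hepatocyte markers. The promoter of KMT5A had log2 fold changes of -0.82 and -1.45 in the authors' deposited tables A and B. That peak does not check the knockout, as editing of an exon can leave a promoter open.

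The mitochondrial ribosome translates the few messages encoded by mitochondrial DNA, all of them for subunits of the respiratory chain and ATP synthase. Its ribosomal RNAs come from mitochondrial DNA, but every one of its proteins is encoded in the nucleus, made in the cytosol and imported. Part of these proteins have counterparts in the bacterial ribosome, and the others are specific to mitochondria. Promoters of such housekeeping genes are open in dividing cells, and sites for ETS factors such as GABPA (NRF2), for NRF1 and for YY1 are known from many nuclear genes of mitochondrial proteins.

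Promoter letters were read from RefSeq (GRCh38.p14), with windows of 250 bases before to 50 after each start, for the 52 members that matched. The first set shows the members with the lowest and the highest mean fold change over both tables after centring, because the results below run between them. It gives the 150 bases before each start, 5′ to 3′ on the gene's strand, with matches to 5 motifs in capitals, and each of these stretches lies inside the member's table A peak. Members without a RefSeq window could not be shown, among them MRPL10 and MRPL45P2, whose mean centred values of -0.595 and 0.705 lie within the lowest and the highest 3. The lowest shown are MRPL50 (chr9:101398619-101398768, minus strand), MRPL33 (chr2:27771569-27771718, plus strand) and MRPL53 (chr2:74472681-74472830, minus strand). The highest shown are MRPL14 (chr6:44127309-44127458, minus strand), MRPL11 (chr11:66438849-66438998, minus strand) and MRPS35 (chr12:27710682-27710831, plus strand). MRPS35 ties at 0.40 with MRPL20 and MRPS10, which both hold ETS letters in their windows and are not shown, so the printed set is no contrast of letters between low and high members.
MRPL50: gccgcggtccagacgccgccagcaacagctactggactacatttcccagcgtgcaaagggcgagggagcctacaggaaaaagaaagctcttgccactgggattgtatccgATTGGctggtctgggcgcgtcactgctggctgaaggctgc
MRPL33: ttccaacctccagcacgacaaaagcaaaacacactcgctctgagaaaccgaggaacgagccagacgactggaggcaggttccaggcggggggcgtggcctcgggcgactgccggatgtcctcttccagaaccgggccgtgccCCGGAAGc
MRPL53: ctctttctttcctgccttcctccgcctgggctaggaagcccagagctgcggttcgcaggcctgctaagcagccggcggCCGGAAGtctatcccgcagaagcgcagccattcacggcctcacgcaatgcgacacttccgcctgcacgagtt
MRPL14: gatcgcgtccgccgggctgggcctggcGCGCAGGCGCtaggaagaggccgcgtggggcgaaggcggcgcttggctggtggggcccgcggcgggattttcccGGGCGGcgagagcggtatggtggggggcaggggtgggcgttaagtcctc
MRPL11: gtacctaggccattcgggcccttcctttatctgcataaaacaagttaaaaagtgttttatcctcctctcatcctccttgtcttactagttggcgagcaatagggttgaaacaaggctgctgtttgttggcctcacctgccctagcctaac
MRPS35: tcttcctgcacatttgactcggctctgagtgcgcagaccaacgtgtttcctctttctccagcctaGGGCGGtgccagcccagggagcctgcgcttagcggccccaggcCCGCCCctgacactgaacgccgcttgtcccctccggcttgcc
MRPL33 and MRPL53 each hold the ETS letters, at base -8 and base -72 before the start. MRPL50 holds a reversed CCAAT box at base -40. MRPL14 holds an NRF1 match at base -123 and a GC box at base -49, MRPS35 holds GC boxes at bases -85 and -42, and MRPL11 holds none of the 5 motifs in this stretch.

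The second set shows the YY1 letters, the motif whose share in members stood furthest from its share in genes with a promoter peak. These are the 4 strongest members with a match inside the peak, a set chosen after the values were seen, as 30 bases each with the match in capitals: MRPS30-DT (chr5:44808950-44808979, minus strand), MRPS18B (chr6:30617853-30617882, plus strand), MRPL38 (chr17:75904859-75904888, minus strand) and MRPL50 (chr9:101398576-101398605, minus strand).
MRPS30-DT: cacctggccgCCGCCATCTTtgcccgcgat
MRPS18B: ggcgtacgtcAAGATGGCGGcgtctgtatt
MRPL38: ggccggagggAAGATGGCGGcgccctggtg
MRPL50: gatctcatcgAAGATGGCGGcgcgatctgt
The match begins at base 24 after the start in MRPS18B and MRPL50, at base 7 in MRPL38, and at base -176 in MRPS30-DT, where it runs on the other strand. The stretch printed for MRPS30-DT lies after the RefSeq start of MRPS30 at 44808947, and its match reads in the sense of MRPS30. Of 15 matches in members, 11 lie after the start and 12 run in the sense of the gene. The letters contain ATG, and whether matches coincide with the first codon of the protein was not checked.

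The 5 motifs were searched on both strands of the 300 bases as YY1 (AA, any base, then ATGGCGG), ETS (CCGGAAG), NRF1 (GCGC, any 2 bases, then GCGC), CCAAT box (CCAAT) and GC box (GGGCGG). YY1 letters were present in 28.8% of 52 members (15 genes), against 4.6% of the 8181 genes with a promoter peak and a RefSeq window and 2.3% of all 27305 windows. ETS letters were present in 40.4% of members (21 genes), against 19.1% and 10.7%. NRF1 letters were present in 11.5% of members, against 16.5% and 8.8%. The CCAAT box was found in 23.1% of members, against 37.2% and 35.7%, and the GC box in 59.6%, against 69.4% and 44.6%. At least 1 of the YY1, ETS and NRF1 matches was present in 67.3% of members, against 35.2% and 19.2%. These shares describe letters in a window, with no test, and 4 members held both the ETS and the YY1 letters.

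**Figure D1:**
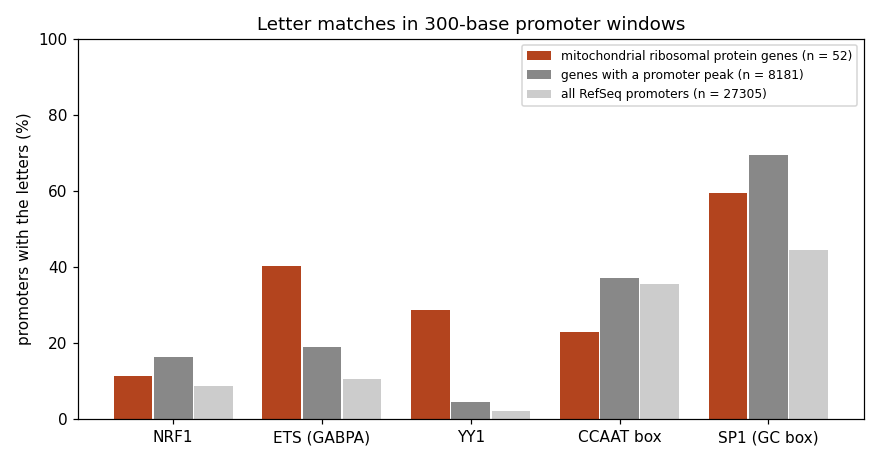
Share of promoters (y axis, percent) that hold each motif's letters, for the 52 members, the 8181 genes with a promoter peak and all 27305 RefSeq windows. Members stand above both sets for ETS and YY1, at 40.4% and 28.8%.

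The median fold change was lower with the letters than without for each of the 5 motifs in table A. In the authors' deposited table A the 21 members with ETS letters had a median log2 fold change of -1.06, against -0.85 for the 31 without. The medians with and without were -1.03 and -0.84 for the GC box, -1.02 and -0.90 for YY1, -0.985 and -0.905 for the CCAAT box and -0.935 and -0.905 for NRF1 in the authors' deposited table A. By the authors' deposited table B they were -1.38 and -1.25 for ETS, -1.37 and -1.26 for the CCAAT box, -1.32 and -1.25 for YY1, -1.28 and -1.27 for the GC box and -1.175 and -1.275 for NRF1. None of these differences was tested. Letters were read at the RefSeq start and fold changes from the strongest annotated peak, and for 6 of the 52 members that start lies outside the peak, by over 10 kb for MRPL30, MRPL34, MRPS25 and MRPS27. MRPL30 counts with the ETS letters at -0.90, while the peak at its RefSeq start, annotated to MITD1, had -1.71 in the authors' deposited table A.

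The median deposited fold change of member promoters was negative, and about the same as that of promoters in general. In the authors' deposited table A the 59 members had a median log2 fold change of -0.91, with a range of -1.97 to 0.26, against -0.93 over all 10187 genes. A level lower by at least 1 on the log2 scale was found for 28 members, where 43.4% of all promoters were this low. By the authors' deposited table B the 55 joined members had a median of -1.28 and a range of -2.02 to -0.58, against -1.26 over 8298 genes. There 46 members were lower by at least 1, where 83.4% of all promoters were. Neither count stands apart from its background. After centring on the median of all peaks the counts were 1 and 0. In table B, log2 of the knockout over the scaled control reads summed over all peaks was -1.23, the same as the median of all its peaks. At a limit of 0.5 the counts were 47 of 59 and 55 of 55, against 86.0% and 99.3% of promoters. Above 0 lay 2 members of table A and 0 of table B, against 2.49% and 0.0241% of promoters. Below the median of all peaks lay 33 of 59 and 31 of 55 members, against 55.9% and 53.1% of promoters. In a bulk library, fewer cells with an open site and less opening per cell cannot be told apart. Nor can they be told apart here from a difference in depth or signal between the libraries, and none of these was tested.

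No member passed the authors' test, where 0.0% of all peaks passed in either table. The adjusted p-values of members ran between 0.731 and 0.984 in the authors' deposited table A and between 0.578 and 0.687 in the authors' deposited table B. MRPL52 was the 1 member with an unadjusted p under 0.05 in table A, and table B had 0, against 329 and 19 of all peaks. A limma fit was run over both tables with the replicate as block. It takes the tables as independent pairs, which was not checked. As deposited it called 53 of 55 members, where it called 96.7% of all joined peaks. After centring each table on its median it called 0 members and 0.00893% of joined peaks. The words higher and lower below therefore give the order of values only. Fold changes are as deposited, and both tables share a downward shift, with medians over all peaks of -0.87 and -1.23.

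**Figure D2:**
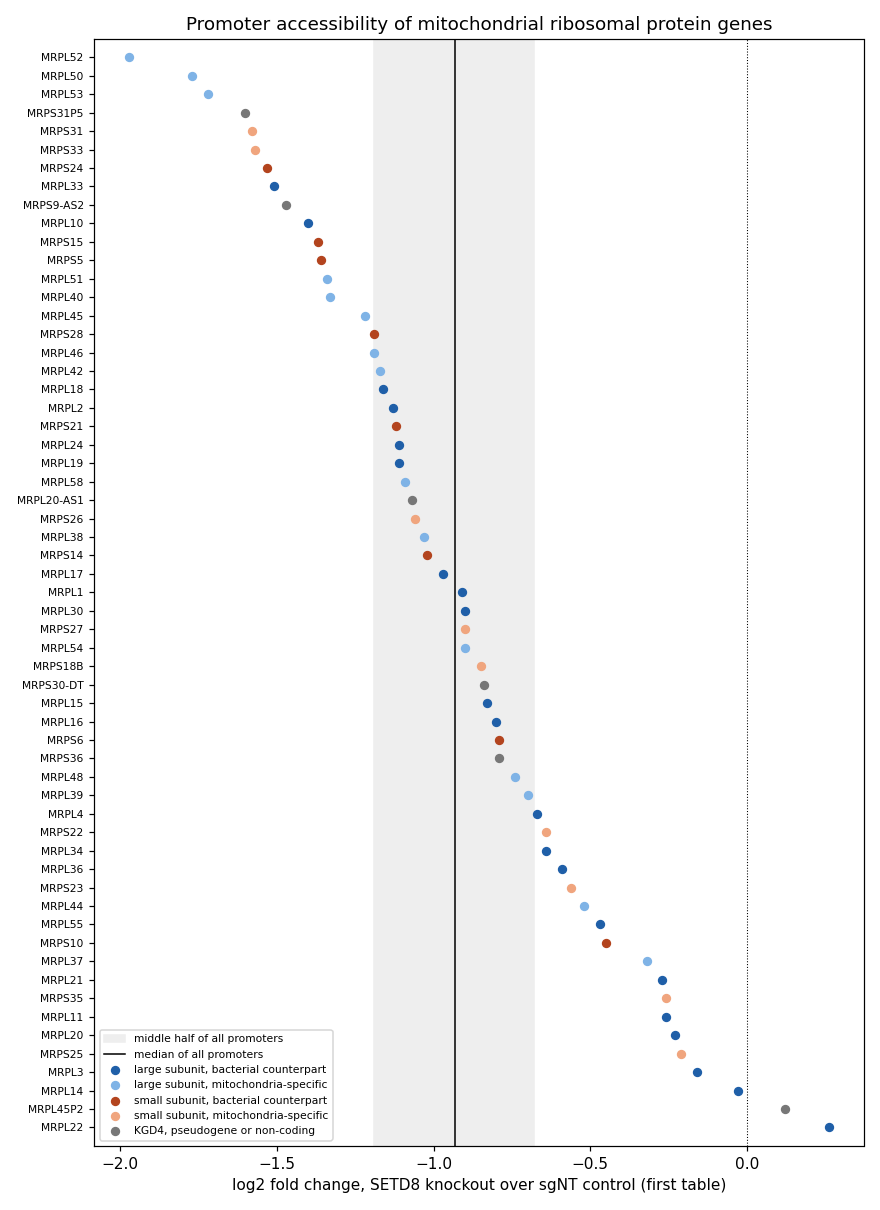
Log2 fold change (x axis, knockout over control, deposited table A, the first) of the strongest promoter peak of each of the 59 members (y axis), coloured by subunit class. The line marks the median of all promoters (-0.93) and the grey band their quartiles (-1.19 and -0.68), and 2 members lie above 0.

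The large subunit holds the peptidyl transferase centre and the exit tunnel. Its 36 members had a median of -0.905 in the authors' deposited table A, against -1.02 for the 17 of the small subunit, which binds the message. In the authors' deposited table B the medians were -1.26 for 32 large subunit genes and -1.28 for 17 small subunit genes. The order of the subunits in table A turned when weaker peaks were left out, to -0.05 for large minus small. Their levels in replicate 2 had medians of 140 knockout reads and 361 normalised control reads for the large subunit, and of 115 and 284 for the small.

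Within the large subunit, genes of mitochondria-specific proteins lay lower than genes with bacterial counterparts in both tables. The medians were -1.17 for 15 specific genes and -0.80 for 21 with counterparts in the authors' deposited table A. They were -1.41 and -1.07, over 14 and 18 genes, in the authors' deposited table B. Of the specific genes 6 lie on chromosomes 2, 9 and 17, where promoters in general had lower values, against 4 of those with counterparts. Relative to the other peaks in their 5 Mb bin, the medians were -0.18 and 0.02 in table A and -0.04 and 0.02 in table B. Within the small subunit table A had the opposite order, at -0.85 for 9 specific genes and -1.16 for 8 with counterparts in the authors' deposited table A. The authors' deposited table B gave -1.39 and -1.17 for them. None of these class differences was tested, since genes are not replicates.

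Among large subunit genes, MRPL50 was low in both tables. It encodes a mitochondria-specific protein, and its promoter peak lies on chromosome 9 at 101398377 to 101399144, within 1 kb of the start of ZNF189 on the other strand. In replicate 2 the peak had 137 knockout reads and 556 normalised control reads. This is a log2 fold change of -2.02 ± 0.27 (95% counting error) in the authors' deposited table B, and only 0.57% of all promoters lay lower. The authors' deposited table A gives it -1.77 with an adjusted p of 0.731, and 2.45% of promoters lay lower there. Across the other peaks of its 5 Mb bin the table A median was -1.42, so that MRPL50 stood 0.35 below its surroundings.

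MRPL33, the counterpart of a small protein of bacterial ribosomes, and MRPL53, a mitochondria-specific protein gene, lie on the short arm of chromosome 2. MRPL33 held 70.0 knockout reads and 261 normalised control reads, at -1.90 ± 0.38 in the authors' deposited table B and -1.51 in the authors' deposited table A. MRPL53 held 153 knockout reads and 440 normalised control reads, at -1.53 ± 0.26 and -1.72 in the authors' deposited tables B and A. Other peaks of their bins had medians of -1.50 and -1.63 in table B, so MRPL33 there lay 0.40 below and MRPL53 0.09 above its surroundings. In table A both lay 0.38 below theirs.

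MRPL52, again mitochondria-specific, had the lowest member value in the authors' deposited table A, at -1.97 with p = 0.0206 and an adjusted p of 0.731. Its peak on chromosome 14 at 22829892 to 22830278 was the weakest of all members, with a mean of 53.8 normalised reads, and it joined no peak of table B. RefSeq places its start 5 bases outside the peak.

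MRPL10, which carries the stalk that recruits translation factors, and MRPL45, which sits at the exit tunnel near the inner membrane, lie on chromosome 17. MRPL10 held 134 knockout reads and 495 normalised control reads, at -1.89 ± 0.27 in the authors' deposited table B and -1.40 in the authors' deposited table A. MRPL45 held 113 knockout reads and 370 normalised control reads, at -1.71 ± 0.30 and -1.22 in the authors' deposited tables B and A. MRPL58, a peptidyl-tRNA hydrolase that rescues stalled ribosomes, lies on the same chromosome, with 112 knockout reads against 340 normalised control reads. Its values were -1.60 and -1.09 in the authors' deposited tables B and A. Other peaks of their bins had table B medians of -1.61, -1.58 and -1.55, within 0.28 of the genes' own table B values.

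MRPL37 and MRPL1 were among the lowest of table B, and the difference between the tables was not tested. MRPL37 held 131 knockout reads and 399 normalised control reads, at -1.61 ± 0.28 in the authors' deposited table B and -0.32 in the authors' deposited table A. MRPL1, the counterpart of the mobile L1 stalk protein, held 88.0 knockout reads and 267 normalised control reads, at -1.60 ± 0.34 and -0.91 in the authors' deposited tables B and A. They lie on chromosomes 1 and 4.

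At the other end, MRPL22, MRPL14, MRPL3 and MRPL20 were the large subunit genes with the highest values in table A. MRPL22 lines the exit tunnel, MRPL14 lies where the subunits meet, and MRPL3 lies near the peptidyl transferase centre in ribosomes. Their values in the authors' deposited table A were 0.26, -0.03, -0.16 and -0.23, and their mean levels of 62.2, 96.3, 88.0 and 83.9 normalised reads were all below the median of 142 over all peaks. MRPL22 and MRPL3 joined no peak of table B. MRPL14 held 139 knockout reads and 265 normalised control reads, at -0.93 ± 0.29 in the authors' deposited table B. MRPL20 held 119 knockout reads and 251 normalised control reads, at -1.07 ± 0.31 in the authors' deposited table B.

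MRPL11, at the base of the stalk, held 175 knockout reads and 355 normalised control reads, at -1.01 ± 0.26 in the authors' deposited table B and -0.26 in the authors' deposited table A.

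MRPL16, MRPL36 and MRPL39 had the highest large subunit values of table B. MRPL16, the counterpart of a protein that helps to place the tRNA, held 131 knockout reads and 195 normalised control reads, at -0.58 ± 0.31 in the authors' deposited table B and -0.80 in the authors' deposited table A. Of all joined promoters, 98.63% lay lower than MRPL16. MRPL36 held 273 knockout reads and 478 normalised control reads, at -0.82 ± 0.21 and -0.59 in the authors' deposited tables B and A. MRPL39 held 172 knockout reads and 320 normalised control reads, at -0.89 ± 0.26 and -0.70 in the authors' deposited tables B and A. After centring, the table B values of MRPL16, MRPL36 and MRPL39 were 0.65, 0.41 and 0.34.

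Among small subunit genes, MRPS31 and MRPS33, both of mitochondria-specific proteins, were the lowest in table A. MRPS31 held 81.0 knockout reads and 223 normalised control reads, at -1.46 ± 0.36 in the authors' deposited table B and -1.58 in the authors' deposited table A. MRPS33 held 95.7 knockout reads and 256 normalised control reads, at -1.42 ± 0.34 and -1.57 in the authors' deposited tables B and A. The pseudogene MRPS31P5, a copy of MRPS31 on the same chromosome, had -1.40 and -1.60 in the authors' deposited tables B and A. How uniquely reads map to the copies was not analysed here.

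MRPS25 and MRPS35 had the highest small subunit values of table A, and MRPS6 and MRPS10 those of table B. MRPS25 stood at -0.21 in the authors' deposited table A, from a peak that the annotation puts at -1362 bp from a start, and at -1.10 in the authors' deposited table B. Its RefSeq start lies 13.4 kb from that peak and has no peak in table A. At that start the authors' deposited table B has a stronger peak, with 139 knockout reads and 256 normalised control reads, at -0.88. MRPS6 held 185 knockout reads and 284 normalised control reads, at -0.62 ± 0.26 in the authors' deposited table B and -0.79 in the authors' deposited table A. MRPS35 held 86.8 knockout reads and 179 normalised control reads, at -1.04 ± 0.37 and -0.26 in the authors' deposited tables B and A. MRPS10 held 162 knockout reads and 292 normalised control reads, at -0.85 ± 0.27 and -0.45 in the authors' deposited tables B and A.

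The strongest member promoters had values on both sides of the promoter median of table A, and below that of table B. MRPL18 had the highest mean level of table A at 976 normalised reads, and held 375 knockout reads and 1075 normalised control reads in replicate 2. It stood at -1.16 in the authors' deposited table A and -1.51 ± 0.17 in the authors' deposited table B. MRPS18B, MRPS28, MRPL38 and MRPL34 followed among coding genes, with values of -0.85, -1.19, -1.03 and -0.64 in the authors' deposited table A. The same genes had -1.32, -1.59, -1.50 and -1.43 in the authors' deposited table B. The peak annotated to MRPS30-DT, which covers the start of MRPS30 too, had -0.84 and -1.27 in the authors' deposited tables A and B.

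Of the other non-coding symbols, MRPS9-AS2 has a peak that also covers the start of MRPS9, with -1.47 and -1.40 in the authors' deposited tables A and B. MRPL20-AS1 had -1.07 and -1.44 there, in the authors' deposited tables. The pseudogene MRPL45P2 had 0.12 and -0.81 in the authors' deposited tables, from 45.9 knockout reads and 81.0 normalised control reads, the lowest of the members. KGD4, listed as MRPS36, had -0.79 and -1.18 in the authors' deposited tables A and B.

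In replicate 2 the knockout library was lower than the control library at all 55 joined member peaks, as it was at 8295 of the 8298 joined promoters. Knockout reads ranged from 45.9 to 440 with a median of 139, and normalised control reads from 81.0 to 1098 with a median of 345. Over all joined promoters the medians were 164 and 396, so members were somewhat weaker than the typical promoter. Across different genes the ranges of the libraries overlap. More knockout reads than the weakest member, MRPL45P2, had in the control were found for 49 members. The same share over all joined promoters is not given, so this count shows nothing particular to members. Counting error alone spans 0.16 to 0.52 on the log2 scale on either side of a fold change. Beyond it, 12 members lay below and 7 above the table's median, where 19.8% of all joined promoters lay below and 14.9% above.

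**Figure D3:**
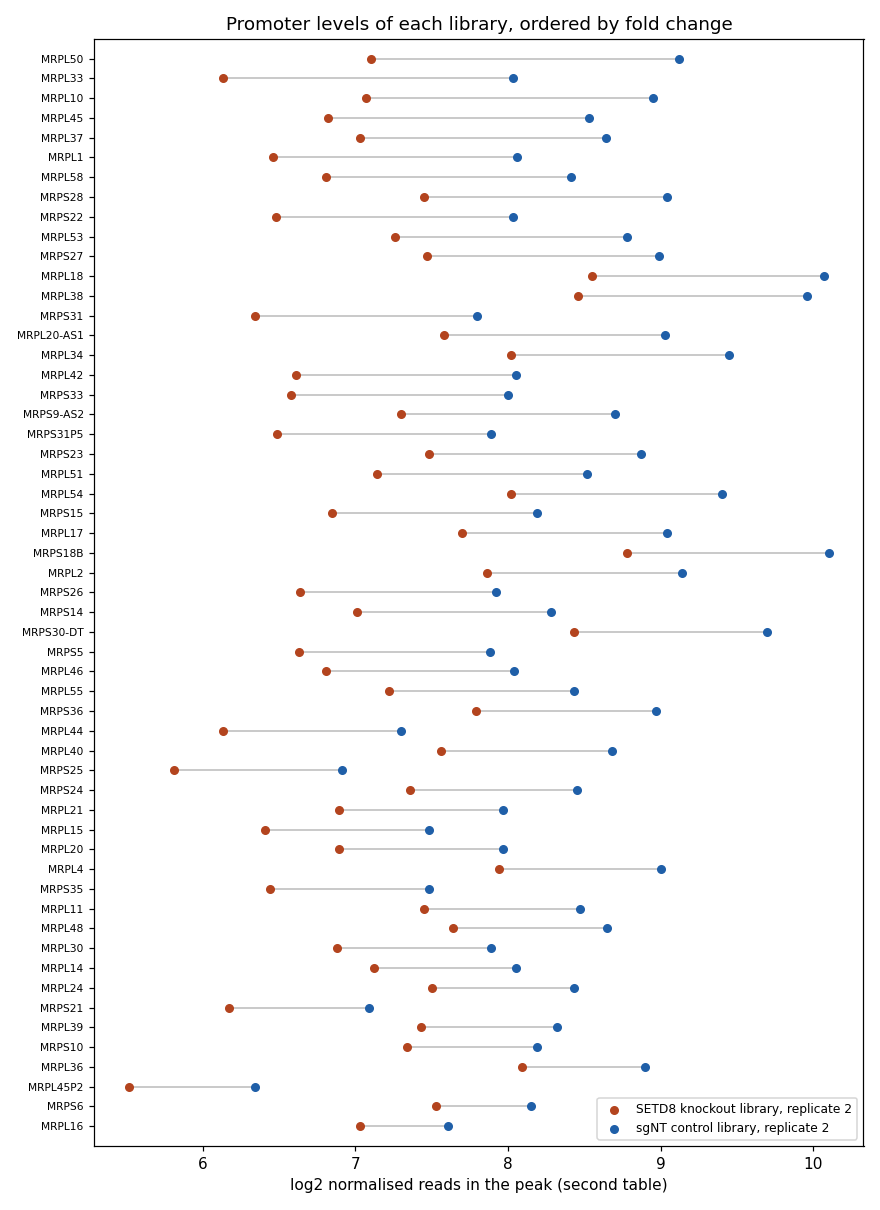
Log2 normalised reads (x axis) of the 55 joined member peaks (y axis, ordered by fold change) in replicate 2, for the knockout and the control library. The knockout point lies left of the control point for each of the 55 members, with MRPL50 showing the widest gap (-2.02) and MRPL16 the narrowest (-0.58).

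The median fold change of weak member peaks was nearer to 0 than that of strong ones. The 43 members at or above the median level of all peaks had a median of -1.06 in the authors' deposited table A, and the 16 below it -0.36. Other promoters had -0.96 and -0.78 on the same sides of that level. By the authors' deposited table B the members stood at -1.36 and -1.07, and other promoters at -1.27 and -1.15. Across the 59 members Pearson's r between mean level and fold change was -0.31 (Spearman's rho -0.29), against -0.20 over the 10128 other promoters. These points share libraries, and the reads behind the level also enter the fold change. Both members above 0, MRPL22 and MRPL45P2, were on the weak side, but so was MRPL52, the lowest member. Of the 16 weak members 4 were lower by at least 1 in the authors' deposited table A, where 34.0% of other weak promoters were.

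**Figure D4:**
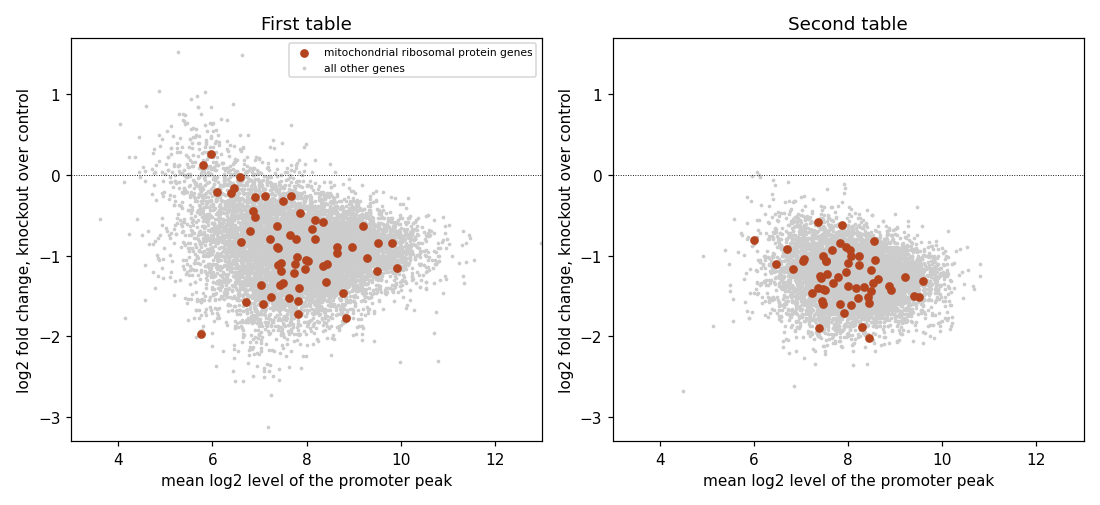
Log2 fold change (y axis) against the mean log2 level of the promoter peak (x axis) for members and all other genes, in deposited tables A (left, first) and B (right, second). Weaker members lie higher, with table A medians of -0.36 below and -1.06 at or above the median peak level; the axis ends at 13, beyond which 2 and 1 other promoters lie.

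Position in the genome went with the fold change. Promoters other than the members had medians of -1.14, -1.22 and -1.08 on chromosomes 2, 9 and 17 in the authors' deposited table A, all below the -0.93 of all promoters. On chromosome 2 the 7 members had a median of -1.36, against -1.14 for 667 other promoters, in the authors' deposited table A. In the authors' deposited table B the medians were -1.33 and -1.40. On chromosome 17 the 6 members had -1.06 against -1.08 in the authors' deposited table A, and -1.55 against -1.55 in the authors' deposited table B. MRPL15 and MRPS28 on chromosome 8 had -0.83 and -1.19 in the authors' deposited table A, where other promoters of that chromosome had -0.81. By the authors' deposited table B they had -1.07 and -1.59, and the other promoters -1.03. Without chromosomes 2, 8, 9 and 17 the members' medians were -0.85 over 43 genes and -1.25 over 40 in the authors' deposited tables A and B. Copy number of these chromosomes was not measured here, and its part in the values was not tested.

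**Figure D5:**
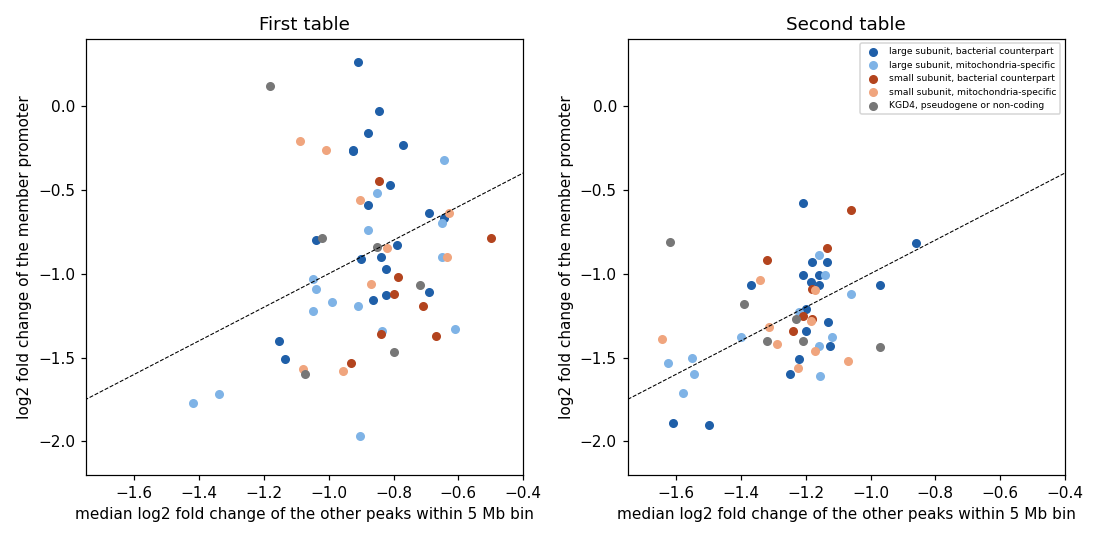
Log2 fold change of each member (y axis) against the median of the other peaks of its 5 Mb bin (x axis), for deposited tables A (left, first) and B (right, second), with the line of equality. Members spread on both sides of the line, with median differences of -0.11 over 58 members and -0.03 over 52.

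The gene list of the mitochondrial ribosome is wider than the symbols found. Of 77 coding MRPL and MRPS genes with a ribosomal product, 24 were not members, and RefSeq gives a start for 21 of these. A table A peak overlapped the promoter window of 15 of the 21, but was annotated to a neighbour, as for MRPL12 (SLC25A10), MRPL27 (EME1), MRPL47 (NDUFB5), MRPL49 (FAU), MRPS12 (SARS2) and MRPS18C (HELQ). MRPS11 shares its peak with MRPL46, so that 1 open site covers the starts of genes for both subunits. The 15 had a median log2 fold change of -0.97 and a range of -1.57 to -0.01 in the authors' deposited table A. Among them the peaks of MRPS9, MRPS11 and MRPS30 are also member peaks, so their values were counted for members too. With 16 windows overlapped in the authors' deposited table B the median was -1.34 and the range -1.76 to -1.10. No window peak was found in either table for MRPL28, MRPL43, MRPS2, MRPS18A and MRPS34. Among the members themselves, 17 of the 52 with a RefSeq start have a gene starting within 1 kb upstream on the other strand. These had a median of -0.90, against -0.91 for the 35 without, in the authors' deposited table A. Starts on the other strand that lie downstream of the member's start were counted as without.

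Other genes of mitochondrial translation had values of the same size, and 0 of them passed the authors' test in either direction. Of 17 tRNA synthetases, which charge mitochondrial tRNAs, 15 had a promoter peak, with a median of -0.80 in the authors' deposited table A and -1.33 in the authors' deposited table B. VARS2 and NARS2 were lowest at -1.88 and -1.51, and IARS2 and PARS2 highest at -0.37 and -0.46, in the authors' deposited table A. The order was not kept in the authors' deposited table B. There VARS2, NARS2 and IARS2 had -1.47, -1.14 and -1.16, and PARS2 was the lowest of the 15 at -1.54. Of 16 translation factors and regulators 12 had a peak, with medians of -1.04 and -1.39 in the authors' deposited tables A and B. MRRF, the ribosome recycling factor, and MTRF1, a release factor, were lowest at -1.79 and -1.59 in the authors' deposited table A. MTIF3, an initiation factor, and TSFM, the exchange factor of the elongation factor TUFM, were highest there, at 0.00 and -0.66 in the authors' deposited table A. By the authors' deposited table B, MTRF1, MTIF3 and TSFM had -1.39, -1.53 and -0.66, and MRRF joined no peak. MTIF2 was the lowest of the list in the authors' deposited table B at -2.27, with -0.73 in the authors' deposited table A.

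Of 25 assembly factors 17 had a peak, with medians of -0.86 and -1.33 in the authors' deposited tables A and B. The pseudouridine synthase family gene TRUB2 and the GTPase gene MTG2 were lowest at -1.97 and -1.53 in the authors' deposited table A. METTL17 and the ribosomal RNA methyltransferase gene NSUN4 stood highest, at 0.07 and -0.50 in the authors' deposited table A. By the authors' deposited table B, TRUB2, MTG2, METTL17 and NSUN4 had -1.64, -1.22, -1.46 and -1.19. ERAL1 was the lowest of the list there, at -2.06, with -1.52 in the authors' deposited table A. Of 5 ribosomal proteins with other symbols 3 had a peak, namely CHCHD1 at -1.56, AURKAIP1 at -1.01 and GADD45GIP1 at -0.74 in the authors' deposited table A. They had -1.19, -1.4 and -1.13 in the authors' deposited table B.

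Ribosomal proteins of the cytosol and subunits of complex I, the respiratory complex with most mitochondrially translated subunits, were set beside the members without a test. The medians were -0.91 for members, -0.85 for 56 cytosolic ribosomal protein genes and -0.77 for 25 NDUF genes in the authors' deposited table A. Lower by at least 1 were 47.5%, 33.9% and 28.0% of them, against 43.4% of all promoters. In the authors' deposited table B the medians were -1.28, -1.23 and -1.21. There 83.6%, 82.0% and 100% were lower by at least 1, so the order of the groups by this share differed between tables.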

How the data were processed

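ATAC-seq reads from 4 Kasumi-1 libraries were processed by the authors with tools that include MACS2 2.1.2, Bowtie2, ChIPseeker, cutadapt, SAMtools and deepTools on hg38, per the submitters' processing notes. The order of steps, the test behind the p-values and the normalisation are not given in the sources used here. Both deposited tables hold log2 levels per peak, log2 fold changes, and p-values with adjusted p-values, as the authors made them. In table B, 100% of 2294 weak knockout values were logs of whole reads within 0.005, and control reads were scaled by 0.918. Read totals in peaks and the 95% counting errors, which cover counting error only, come from that. No count test was run, as counts of named libraries were not at hand, and 2 value columns of table A, whose libraries are unnamed, were not used. Depth of table A's libraries was therefore not read.

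For each gene the strongest promoter peak was taken, and peaks were joined between tables by an overlap of at least 1 bp. Members and lists were chosen with earlier results of these data known. Named are the 6 lowest and 6 highest members per table, the 6 strongest, the non-coding symbols and the members with printed sequence. From each other list the 2 lowest and 2 highest of table A are named. MTIF2 and ERAL1 were added as the lowest of their lists in table B. Values were computed in Python 3.11.15 with pandas 2.3.3 and numpy 2.4.6. The replicate block was fitted by limma 3.58.1 in R 4.3.3. It was tested on simulated data and recovered 94 of 100 changes of 1 and 100 of 100 changes of 2, with 6 false calls. The simulation gave every peak the same noise (SD 0.304) and took the tables as independent. Recovery in the real data may therefore differ. With 1 library per group, the p-values of table B cannot measure a spread between replicates. Table A names no library, and nothing says that libraries came from separate cultures. Its p-values measure at most the spread between its libraries, which may be technical.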

Additional observations from a re-analysis of the deposited data

How the results depend on the processing

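The difference between members and all promoters was 0.02 in table A and -0.02 in table B. The alternatives run for it gave 0.015, -0.042 and -0.01 in table A, and -0.02, 0.005 and -0.02 in table B. Its sign was therefore not stable. A limit on peak level was not run for it. By peak level, strong members had -1.06 against -0.96 for other strong promoters in table A, and weak members -0.36 against -0.78. In table B the values were -1.36 against -1.27 and -1.07 against -1.15. Centring on the median of all peaks moved the members' medians to -0.04 and -0.05 in tables A and B, and the members lower by at least 1 to 1 and 0. Removing the trend with level gave medians of 0.02 and -0.02, and removing that of the 5 Mb bin gave -0.103 and -0.025. With peaks at or above the median level, the table A median was -1.06, the table B count 28 of 33 members, and the large minus small subunit difference -0.05 and -0.085, against 0.115 and 0.02. Outside chromosomes 2, 8, 9 and 17 the table A count was 17 of 43 members and the subunit difference 0.22. The subunit difference was 0.215 with the regional trend removed. Shares of all promoters under the same restrictions are not given here. The counts of 28 of 33 and 17 of 43 are therefore not read as results about the members. A fold limit of 0.5 gave 47 members in table A. A fit with the replicate block, which takes the tables as independent pairs, called 53 of 55 members as deposited, where 96.7% of 11203 joined peaks were called, and 0 members after centring. Whether the tables share libraries was not checked, so the pairing is unknown. The cause of these shifts was not tested. Leaving out single replicates was not run, because table A names no library and table B has 1 library per group. Depth limits table B to differences of about 0.27, the median counting error.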

Other observations

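Besides the strongest promoter peak, MRPL34, MRPL39, MRPL58 and MRPS27 each had a second promoter peak. In the authors' deposited table A the pairs stood at -0.64 and -0.88 for MRPL34, -0.70 and -0.66 for MRPL39, -1.09 and -0.96 for MRPL58, and -0.90 and -0.42 for MRPS27, the stronger peak first. A further 18 peaks outside promoters were annotated to 15 genes of these symbols, 9 of them distal, 7 in introns and 2 in exons. Their median log2 fold change was -0.925 in the authors' deposited table A, and 8 of 18 were lower by at least 1, where 38.9% of all peaks were. The lowest, at -2.0, and the highest, at 0.47, were both distal peaks annotated to MRPS30, which encodes a protein of the mitochondrial ribosome. They were weak, with mean levels of 99.7 and 48.2 normalised reads, and 5 of the 18 joined a peak of table B.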
